A study of Mus musculus with 24 samples.

Results

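The integrated stress response (ISR) is a signalling network in which several kinases phosphorylate the translation factor eIF2α, general translation falls, and the transcription factor ATF4 is made. This report describes 10 genes known as effectors of that response in mouse macrophages: *Trib3*, *Chac1*, *Sesn2*, *Ddit4*, *Gdf15*, *Fgf21*, *Nupr1*, *Stc2*, *Vldlr* and *Eif4ebp1*. The rule that chose them is a list of names and uses no measured value, although the list was drawn up with earlier results of these data known. All 10 were found by gene identifier among 56884 genes in the count table. Of these, 8 had enough reads to be tested, and *Fgf21* and *Stc2* did not.

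Bone marrow–derived macrophages (BMDM), grown from marrow with M-CSF and collected on day 6, came from 4 wild-type female C57BL/6J mice of 9 weeks, numbered 1, 2, 4 and 5. From each mouse there was 1 poly(A) RNA-seq library per condition, which gave 24 libraries in 6 groups of 4, with a library of every group from every mouse. Naive macrophages received no cytokine for 24 hours, and the other 5 groups were treated for 24 hours with IL-4 and IL-13, each at 20 ng/ml. In 4 of these 5, an inhibitor was added 1 hour earlier and kept on: tunicamycin at 5 µg/ml, Sal003 at 10 µM, or, in 2 groups, oligomycin at 1 µM. Tunicamycin blocks N-linked glycosylation and stresses the endoplasmic reticulum, oligomycin blocks the mitochondrial ATP synthase, and Sal003 slows the dephosphorylation of eIF2α. In 1 of the oligomycin groups ISRIB, a compound that makes cells less sensitive to phosphorylated eIF2α, was also added at 1 µM, but the sample titles and the library names contradict each other on which of the 2 it was. These groups are called oligomycin set A (ISRIB according to the titles) and oligomycin set B (ISRIB according to the library names). No measured value was used to choose between these readings.

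Libraries held between 16238727 and 26725278 reads on genes. The summed level of 8 macrophage markers was high in every library, and in each group all 8 had more than 3 reads in at least 1 library. Their summed level in CPM, the reads of a gene scaled to a library of fixed size, also moved with treatment. It was 31070 to 36910 CPM in naive cells and 11790 to 14200 with IL-4/IL-13. The range was 16550 to 18160 with tunicamycin, 14240 to 15940 with Sal003, 9115 to 9933 in oligomycin set A and 13850 to 15710 in set B. The sum does not stand for each marker. By the rule given below, tunicamycin against IL-4/IL-13 alone gave 2 of the 8 called higher and 3 lower (8.56% and 14% of all genes), with a median log2 change of 0.06. Lymphocyte markers summed to at most 3.33 CPM. Neutrophil markers (8 genes) moved with treatment: their summed level ranged from 40.7 to 76.8 CPM in naive cells, 24.1 to 44.4 with IL-4/IL-13, 18.9 to 24.7 in oligomycin set B, 5.09 to 8.49 with Sal003, 2.73 to 4.71 in oligomycin set A and 0.103 to 0.286 with tunicamycin, where *Camp*, *Elane* and *Ly6g* had no read. Stromal markers (8 genes) differed by mouse, from 17 CPM in mouse 5 to 89.7 in mouse 1 within the IL-4/IL-13 group. In every mouse they were highest in naive cells (20.5 to 143 CPM) and lower with each inhibitor than with IL-4/IL-13 alone. The range was 8.49 to 49.8 CPM with Sal003, 6.50 to 55.9 in oligomycin set A and 8.75 to 54.4 in set B. Tunicamycin gave the lowest level in every mouse (4.23 to 26.3 CPM). The part of these cells in the results on the effectors was not tested. In bulk RNA, fewer cells of a type and less RNA per cell cannot be told apart.

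The effectors act at different levels. *Trib3* encodes a pseudokinase that binds AKT and ATF4 and dampens the response. *Chac1* encodes an enzyme that degrades glutathione. *Sesn2*, *Ddit4* (REDD1) and *Eif4ebp1* (4E-BP1) encode restraints on mTORC1 signalling and on cap-dependent translation. *Gdf15*, *Fgf21* and *Stc2* encode secreted proteins, *Nupr1* a small nuclear stress protein, and *Vldlr* a surface receptor for lipoproteins. ATF4 binds DNA together with C/EBP partners at composite sites that join an ATF half-site to a C/EBP half-site.

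The letters of such a composite site (TGATGNAA, searched on both strands) were found in a promoter of 5 of the 9 effectors listed in the RefSeq promoter table (GRCm38.p6, 250 bases before to 50 bases after each start): *Trib3*, *Chac1*, *Fgf21*, *Nupr1* and *Vldlr*. Over the whole table, 3.97% of 32851 promoters and 4.51% of 27025 genes held them. The stretches around the 5 matches are shown because the genes that hold them include the most strongly raised effectors and also the undetected *Fgf21*. Each is written 5′ to 3′ on the strand of the gene, with the match, which in each case reads on the opposite strand, in capitals.
Trib3 (chr2:152344039-152344096, minus strand, match 15 to 22 bases after the start): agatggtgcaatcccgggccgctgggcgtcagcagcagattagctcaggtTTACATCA
Chac1 (chr2:119350999-119351106, plus strand, match 193 to 186 bases before the start): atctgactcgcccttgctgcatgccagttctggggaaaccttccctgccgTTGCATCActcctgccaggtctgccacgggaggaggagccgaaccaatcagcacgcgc
Fgf21 (chr7:45615572-45615679, minus strand, match 139 to 132 bases before the start): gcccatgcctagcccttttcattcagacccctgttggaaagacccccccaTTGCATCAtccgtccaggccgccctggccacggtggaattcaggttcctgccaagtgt
Nupr1 (chr7:126625523-126625630, minus strand, match 110 to 103 bases before the start): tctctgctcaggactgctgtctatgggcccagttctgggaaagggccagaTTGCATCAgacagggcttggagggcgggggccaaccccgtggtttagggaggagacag
Vldlr (chr19:27216770-27216877, plus strand, match 200 to 193 bases before the start): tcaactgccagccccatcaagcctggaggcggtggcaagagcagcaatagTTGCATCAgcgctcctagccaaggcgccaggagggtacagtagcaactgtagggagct
In 4 of the 5 stretches the open position of the motif was filled in the same way, and *Trib3* differed there. The match in *Trib3* lies just past the start and the others lie upstream. No match was found in the listed promoters of *Sesn2*, *Gdf15*, *Ddit4* and *Stc2*, or in those of the 8 paralogs and relatives of the effectors with a listed promoter. Of the 21 other ISR genes with a listed promoter 4 held one (*Atf3*, *Asns*, *Pycr1* and *Slc7a11*), beside 4.51% of all genes. The promoter windows of the effectors held neither the cAMP response element TGACGTCA (1.79% of all promoters) nor the ER stress element known as ERSE (0.119%). *Eif4ebp1* is not shown.

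IL-4/IL-13 alone lowered more of the effectors than it raised. A gene was called changed when its adjusted *P* over all 13679 genes tested was under 0.05 (edgeR quasi-likelihood test, Benjamini-Hochberg) and it differed at least 2.5-fold. By this rule 0 of 8 effectors were higher in IL-4/IL-13 than in naive macrophages (5.39% of all genes were) and 2 were lower (6.08% of all genes). Without the minimum fold, 1 was higher (30.1% of all genes) and 5 were lower (30.4%). *Gdf15* fell from 7.03, 7.39, 5.69 and 7.95 CPM in naive cells of mice 1, 2, 4 and 5 to 2.84, 1.87, 2.63 and 3.10 CPM, and every cytokine-treated library was below every naive library. This is a log2 difference of -1.44 (SE 0.15, adjusted *P* = 1e-08, edgeR), which dropped under the fold limit without mouse 2 (-1.28). *Vldlr* fell from 32, 25, 22 and 28 reads to 7, 0, 9 and 0 reads (log2 difference -2.64, SE 0.51, adjusted *P* = 8.1e-05, edgeR; -3.43 without mouse 4). The cytokine-treated libraries without a *Vldlr* read came from mice 2 and 5, whose summed stromal markers were 55.9 and 17 CPM, against 89.7 and 51.0 CPM in mice 1 and 4, and the part of stromal cells was not tested. *Sesn2* (-0.67), *Nupr1* (-0.63) and *Ddit4* (-0.36) also fell, by less than the fold limit, while *Trib3* rose by 0.58 on the log2 scale, which did not hold without mouse 2 (adjusted *P* = 0.075, edgeR). The adjusted *P* of *Ddit4* was no longer under 0.05 without mouse 1 (0.23) or mouse 2 (0.087) in edgeR.

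Tunicamycin raised 7 of the 8 effectors tested against IL-4/IL-13 alone (8.56% of all genes were called higher) and lowered none past the fold limit (14% of all genes were called lower). Their median log2 change was 3.84, beside 0.01 over all genes. *Trib3* went from 3.34, 4.29, 3.42 and 3.16 CPM in mice 1, 2, 4 and 5 to 856, 848, 793 and 842 CPM. The groups did not overlap, and the difference was 233-fold (log2 7.87, SE 0.11, adjusted *P* = 3.3e-26, edgeR), the 25th largest rise of all genes tested. Lack of overlap was common between these 2 groups: 10 of 15 mTORC1 pathway genes and 10 of 12 p53 target genes did not overlap either. Its share over all genes was not computed, so lack of overlap is a description throughout. *Chac1* went from 5, 10, 3 and 7 reads to 860, 887, 752 and 848 reads, a 124-fold rise (log2 6.95, SE 0.15, adjusted *P* = 6.5e-23, edgeR). The tunicamycin libraries were close to each other for both genes (835 ± 28.4 CPM for *Trib3* and 43.1 ± 0.835 CPM for *Chac1*, SD, *n* = 4).

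Of the secreted and nuclear effectors, *Gdf15*, a stress cytokine that acts on appetite through a brainstem receptor, was 2.84, 1.87, 2.63 and 3.10 CPM with IL-4/IL-13 and 146, 139, 140 and 128 CPM with tunicamycin. This 53.3-fold rise (log2 5.74, SE 0.12) placed *Gdf15* 74th among all genes. *Nupr1* rose 29.7-fold, from 8.30, 7.36, 6.63 and 6.25 CPM to 216, 212, 216 and 205 CPM (log2 4.89, SE 0.13). Neither gene had overlapping groups. *Stc2*, which encodes a secreted glycoprotein, had 1, 4, 1 and 1 reads with IL-4/IL-13 and 6, 8, 10 and 2 reads with tunicamycin, and *Fgf21*, a hormone made mainly by liver, had 1 read in mouse 1 with tunicamycin, 1 read in mouse 1 of oligomycin set A and no read elsewhere. These reads are within the 3 that a count of 0 allows, so *Fgf21* was not detectable at this depth. In a fit without the expression filter, the comparison of tunicamycin with IL-4/IL-13 gave *Stc2* an adjusted *P* of 0.031 in edgeR and 0.11 in DESeq2.

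The effectors of mTORC1 and translation did not move together. *Sesn2*, which restrains mTORC1 when leucine is scarce, rose 5.70-fold, from 30.0, 30.2, 31.4 and 35.3 CPM to 178, 182, 175 and 187 CPM (log2 2.51, SE 0.06). *Eif4ebp1*, which holds the cap-binding factor eIF4E, rose 3.26-fold from 42.1, 41.3, 40.7 and 43.0 CPM to 132, 133, 145 and 135 CPM (log2 1.71, SE 0.08). In contrast, *Ddit4* was lower in all 4 mice, at 3.24, 3.24, 3.57 and 2.96 CPM against 3.90, 4.19, 3.90 and 4.31 CPM (log2 -0.33, SE 0.13, adjusted *P* = 0.025, edgeR). That difference was small, and its adjusted *P* was above 0.05 with DESeq2 (0.054) and without mouse 1 (0.06), 2 (0.09) or 5 (0.17) in edgeR. *Vldlr* rose from 7, 0, 9 and 0 reads to 25, 41, 26 and 28 reads, a 6.88-fold difference (log2 2.78, SE 0.50, adjusted *P* = 2.2e-05, edgeR) that was 3.53 on the log2 scale without mouse 4. The *Vldlr* level with tunicamycin was close to the naive one, with a log2 difference of 0.15 (95% interval -0.57 to 0.86).

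**Figure D1:**
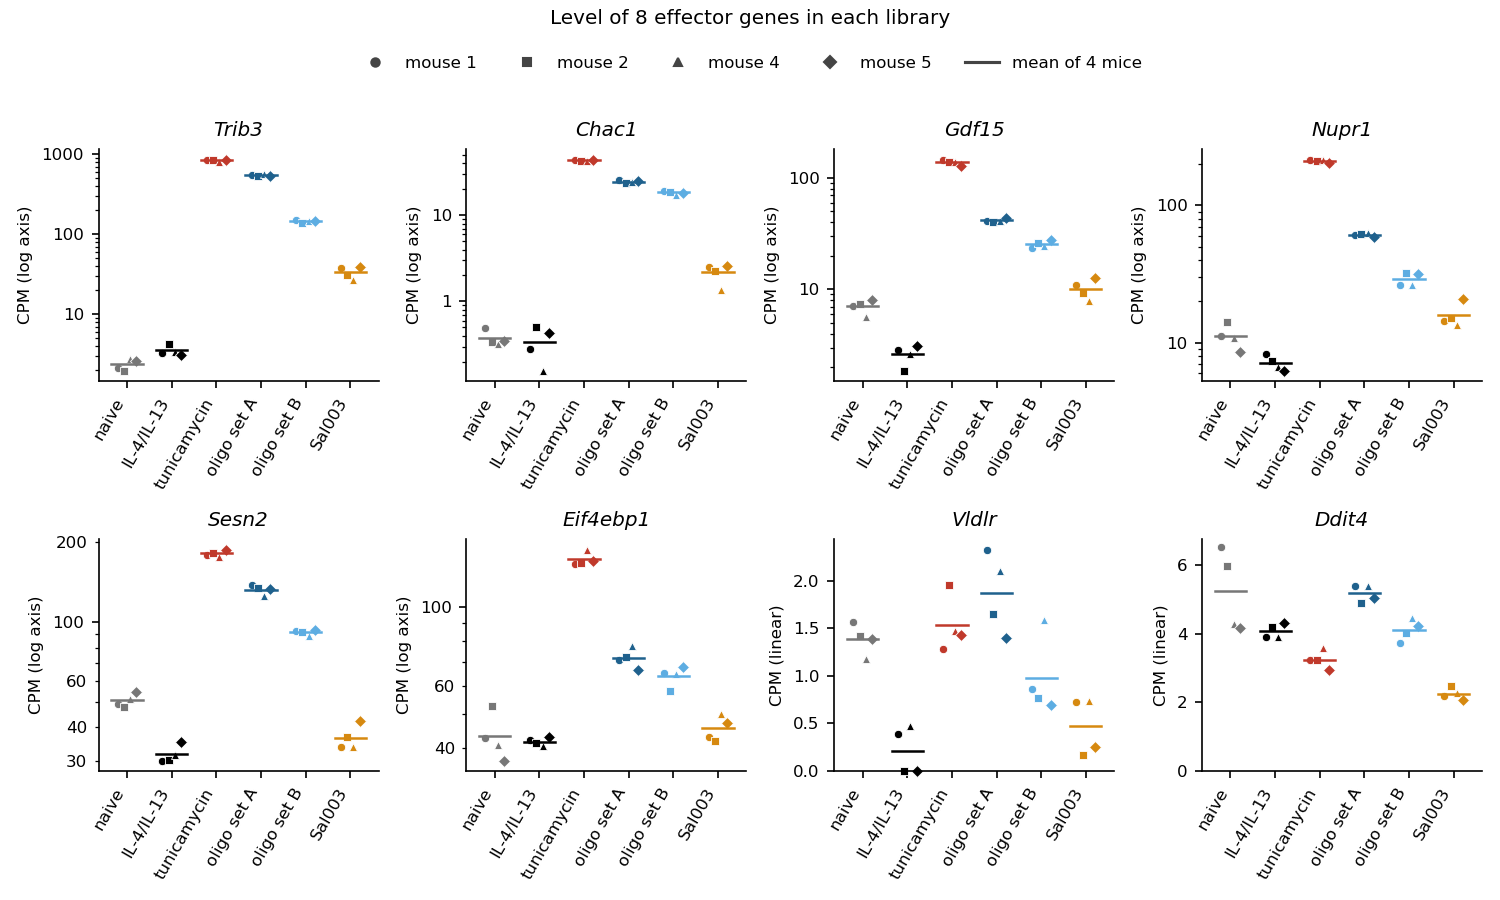
Level of the 8 tested effectors in each library, in CPM (log axes, except linear axes for *Vldlr* and *Ddit4*), by group; each symbol is 1 mouse and the line is the mean of 4 mice. *Trib3* ran from a mean of 3.55 CPM with IL-4/IL-13 to 835 CPM with tunicamycin, whereas *Ddit4* stayed between group means of 2.25 and 5.24 CPM.

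Oligomycin raised the same 6 effectors past the fold limit in both sets: *Trib3*, *Chac1*, *Gdf15*, *Nupr1*, *Sesn2* and *Vldlr*. In set A, 6 of 8 were called higher than with IL-4/IL-13 alone (4.79% of all genes) and 0 lower (7.96%), with a median log2 change of 3.08. In set B, 6 of 8 were called higher (2.94% of all genes) and 0 lower (5.02%), with a median of 2.07. *Trib3* reached 546, 531, 561 and 529 CPM in set A (151-fold, log2 7.24, SE 0.11) and 150, 140, 148 and 148 CPM in set B (40.9-fold, log2 5.35, SE 0.10). *Chac1* reached 25.6, 23.4, 24.5 and 24.8 CPM in set A (70.6-fold, log2 6.14, SE 0.15) and 19.2, 18.8, 17.1 and 18.3 CPM in set B (52.8-fold, log2 5.72, SE 0.16). Among all genes ranked by their rise, *Trib3* and *Chac1* stood 8th and 16th in set A and 4th and 3rd in set B.

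*Gdf15* was 41.3, 40.4, 41.4 and 43.8 CPM in set A (16.1-fold) and 23.5, 26.2, 24.3 and 27.5 CPM in set B (9.81-fold). *Nupr1* was 61.1, 61.6, 62.7 and 58.9 CPM in set A (8.54-fold) and 26.5, 32.3, 26.1 and 31.7 CPM in set B (4.08-fold). *Sesn2* was 138, 134, 125 and 132 CPM in set A (4.17-fold) and 91.4 ± 2.13 CPM in set B (SD, *n* = 4; 2.89-fold). All of these libraries lay above every IL-4/IL-13 library. *Vldlr* had 49, 35, 40 and 28 reads in set A (8.33-fold, log2 3.06, SE 0.49, and 3.73 without mouse 4) and 16, 14, 28 and 18 reads in set B (4.31-fold, log2 2.11, SE 0.54). *Eif4ebp1* rose by less than the fold limit in both sets (1.72-fold and 1.53-fold). *Ddit4* rose 1.27-fold in set A (adjusted *P* = 0.015, edgeR; 0.06 with DESeq2, 0.071 without mouse 1 and 0.072 without mouse 4 in edgeR), and in set B its log2 difference was 0.02 (95% interval -0.23 to 0.26), with a sign that turned under other scaling factors.

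Sal003 raised 3 of 8 effectors past the fold limit (2.68% of all genes were called higher) and lowered 0 (5.04%), with a median log2 change of 1.12. *Trib3* reached 38.2, 31.4, 27.2 and 38.5 CPM (9.47-fold, log2 3.24, SE 0.11), *Chac1* had 48, 40, 24 and 50 reads (6.30-fold, log2 2.65, SE 0.23), and *Gdf15* reached 10.9, 9.36, 7.87 and 12.6 CPM (3.94-fold, log2 1.98, SE 0.14). None of these overlapped with IL-4/IL-13 alone. Neither did 10 of 12 p53 target genes, although 0 of the 12 were called. *Nupr1* rose 2.23-fold (adjusted *P* = 1.2e-07, edgeR), under the limit. *Sesn2* rose only 1.16-fold with overlapping groups (adjusted *P* = 0.0088, edgeR; 0.068 without mouse 2), and *Eif4ebp1* (1.09-fold, adjusted *P* = 0.21) and *Vldlr* (adjusted *P* = 0.14) did not pass the test. *Ddit4* fell by 0.86 on the log2 scale (SE 0.14, adjusted *P* = 9.4e-06, edgeR), to 2.18, 2.48, 2.27 and 2.06 CPM, below every library of every other group.

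**Figure D2:**
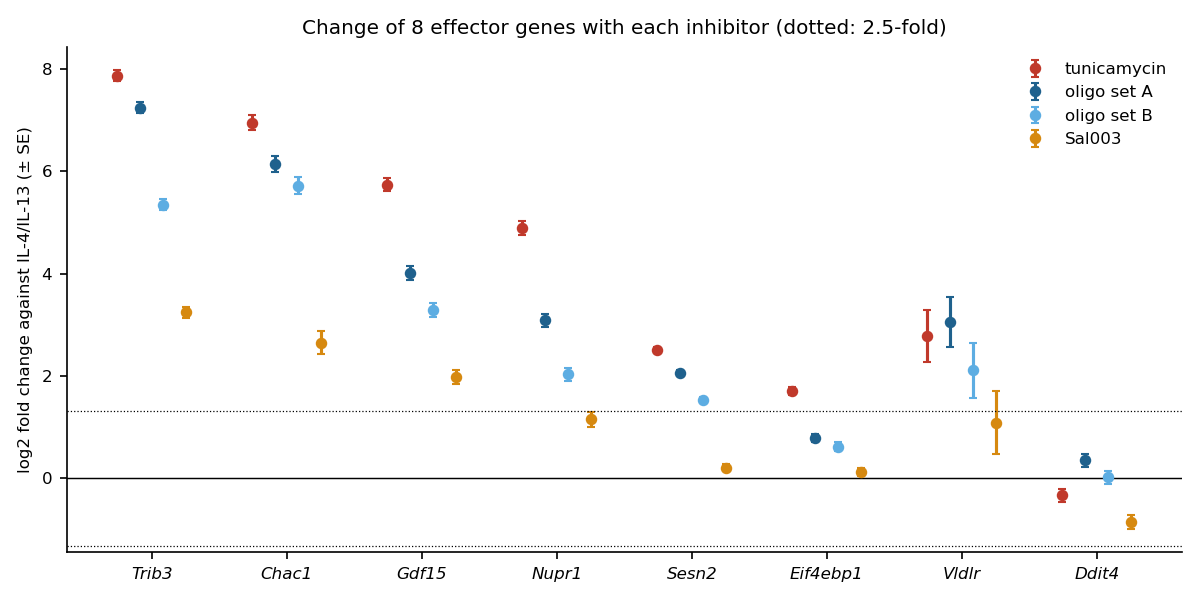
Log2 fold change of the 8 tested effectors against IL-4/IL-13 alone with each inhibitor (points, edgeR estimates; bars, SE; dotted lines, 2.5-fold). The changes ran from 7.87 for *Trib3* with tunicamycin to -0.86 for *Ddit4* with Sal003.

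The 6 groups were then ordered by mean level for each effector, and neighbours in the order were compared. *Trib3*, *Chac1*, *Gdf15*, *Nupr1*, *Sesn2* and *Eif4ebp1* had the 4 inhibitor groups in 1 order, tunicamycin, oligomycin set A, oligomycin set B and Sal003, although naive cells stood between set B and Sal003 for *Sesn2*. In this order tunicamycin and set A differed for all 6 genes (log2 0.45 to 1.8, adjusted *P* at most 2e-07, edgeR). Set A and set B differed for the 5 others but not detectably for *Eif4ebp1* (71.8 ± 4.56 against 63.9 ± 4.11 CPM, adjusted *P* = 0.082, edgeR). *Eif4ebp1* passed in edgeR with upper-quartile factors (adjusted *P* = 0.037), with only the groups compared (0.024) or without mouse 5 (0.04). For *Vldlr*, no pair of neighbours differed (adjusted *P* from 0.14 to 0.72). *Ddit4* followed another order, with naive cells (5.24 ± 1.19 CPM) and set A (5.18 ± 0.254) at the top, set B (4.11 ± 0.309) and IL-4/IL-13 alone (4.07 ± 0.208) next, then tunicamycin (3.25 ± 0.253) and Sal003 (2.25 ± 0.178). Of 40 pairs of neighbours over the 8 genes, 29 differed, with no minimum fold. Many other genes also differ at this threshold. Of all genes, 31.4% were higher and 32.1% lower with tunicamycin than in set A, and 30.1% and 30.4% with IL-4/IL-13 than in naive cells. Set A against set B gave 19.9% and 21.3%, Sal003 against IL-4/IL-13 25.9% and 24.6%, and set B against Sal003 9.74% and 8.77%. Tunicamycin gave 38.7% and 37.6% against IL-4/IL-13 and 35.9% and 36% against Sal003. Shares for the inhibitor groups against naive cells, which are also among the pairs, are not given here. The groups were sorted by the same means first, so the count is a description.

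On a scale per kilobase of transcript, *Trib3* was the most abundant effector with tunicamycin (399 RPKM, which is CPM divided by the length of the canonical transcript in kilobases), followed by *Nupr1* (256), *Gdf15* (72.1), *Eif4ebp1* (68.0), *Sesn2* (51.9) and *Chac1* (25.9), with *Ddit4* (1.85) and *Vldlr* (0.186) far below. With IL-4/IL-13 alone the most abundant was *Eif4ebp1* (20.8), and *Trib3* stood at 1.70. Apart from the first place of *Trib3* with tunicamycin, this order depends on the length used: over the length of all annotated exons *Nupr1* falls below *Gdf15* with tunicamycin, and *Eif4ebp1* falls below *Sesn2* in both groups.

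The direct comparisons of inhibitors share the libraries above, and each gene's own values are given side by side. Oligomycin set A against set B gave 1 effector called higher (1.14% of all genes) and 0 lower (1.48%): *Trib3*, 3.70-fold higher in set A (log2 1.89, SE 0.07, adjusted *P* = 1.1e-15, edgeR). Without the minimum fold, 7 of 8 effectors were higher in set A (19.9% of all genes) and 0 lower (21.3%). *Nupr1* was 2.09-fold higher, *Vldlr* 1.93-fold, *Gdf15* 1.64-fold, *Sesn2* 1.45-fold, *Chac1* 1.34-fold and *Ddit4* 1.26-fold. The *Vldlr* and *Ddit4* differences had adjusted *P* of 0.043 and 0.03 (edgeR). For *Vldlr* the adjusted *P* was above 0.05 without mouse 1 (0.22), mouse 2 (0.08) or mouse 5 (0.072), and for *Ddit4* without any 1 of the 4 mice (0.053 to 0.14).

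Tunicamycin against oligomycin set A gave 2 effectors called higher (5.64% of all genes) and 0 lower (8.6%), *Nupr1* (3.47-fold) and *Gdf15* (3.31-fold). Without the minimum fold, 6 were higher (31.4% of all genes) and 1, *Ddit4*, was lower (32.1%). *Eif4ebp1* was 1.90-fold, *Chac1* 1.75-fold, *Trib3* 1.54-fold and *Sesn2* 1.37-fold higher with tunicamycin. Tunicamycin against oligomycin set B gave 3 called higher (7.19% of all genes) and 0 lower (11.2%), *Nupr1* (7.26-fold), *Trib3* (5.71-fold) and *Gdf15* (5.43-fold).

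Against Sal003, tunicamycin gave 7 effectors called higher (7.8% of all genes) and 0 lower (11.3%), from *Trib3* (24.7-fold) to *Eif4ebp1* (3.00-fold), and 6 without mouse 2, when *Vldlr* fell under the limit (log2 1.28). Oligomycin set A gave 6 higher (2.27% of all genes) and 0 lower (2.05%), from *Trib3* (16.0-fold) to *Sesn2* (3.61-fold). Oligomycin set B gave 2 higher (0.314% of all genes) and 0 lower (0.183%), *Chac1* (8.39-fold) and *Trib3* (4.32-fold). *Sesn2* and *Gdf15* each lay at the fold limit in this last comparison (log2 1.32), and both passed it without mouse 5, which gave 4 called. With the mouse as a block this comparison gave 3 called.

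The proportions of these effectors were described with ratios of read counts inside each library, a quantity that no scaling factor enters. These 4 ratios were chosen after the levels were seen. The log2 ratio of *Trib3* to *Chac1* was 4.42 to 4.52 in oligomycin set A and 2.90 to 3.11 in set B, a difference of 1.47 without overlap. The log2 ratio of *Nupr1* to *Trib3* was -2.04 to -1.88 with tunicamycin and -3.17 to -3.11 in set A, a difference of 1.17. That of *Gdf15* to *Trib3* was -2.72 to -2.50 and -3.76 to -3.59, a difference of 1.10, and that of *Sesn2* to *Trib3* was -2.26 to -2.17 and -2.17 to -1.99, a difference of -0.17. Oligomycin set B stood at -2.33 for *Nupr1*, -2.53 for *Gdf15* and -0.68 for *Sesn2* to *Trib3* (means of 4 mice), so for *Gdf15* it was level with tunicamycin and not with set A. For *Sesn2* the values of tunicamycin and set A in mouse 4 were nearly equal (-2.18 and -2.17). An exact permutation over libraries was run for each ratio. Its *P* cannot serve as a test, because the ratios were picked after the levels were seen, so the ratios are a description.

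**Figure D3:**
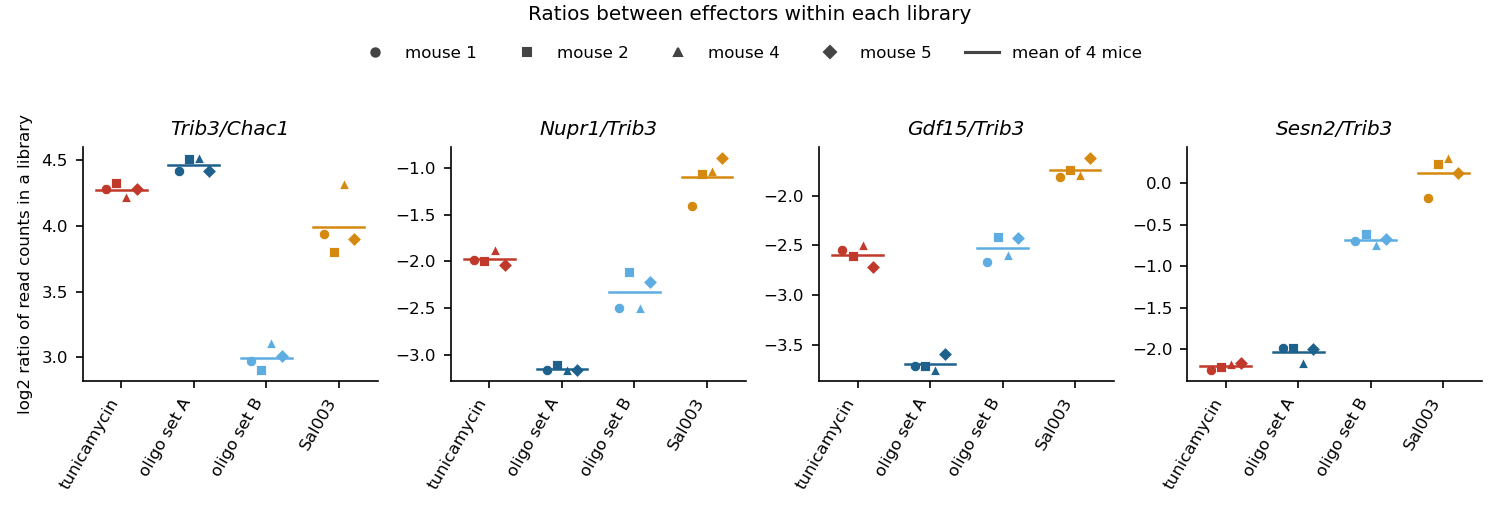
Log2 ratio of the read counts of a pair of effectors within each library (symbols, mice; lines, means of 4 mice) for the 4 inhibitor groups. *Trib3* to *Chac1* averaged 4.46 in oligomycin set A and 3.00 in set B; *Nupr1* to *Trib3* averaged -1.98 with tunicamycin and -3.15 in set A.

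Several effectors belong to families, and the other members of these families were mostly not raised. Of 11 listed paralogs and relatives 8 were tested, and with tunicamycin 0 were called higher and 4 lower (8.56% and 14% of all genes). *Trib1*, a pseudokinase of the same family as *Trib3* that directs proteins to degradation, fell from 34.5 ± 2.40 to 4.43 ± 1.30 CPM with tunicamycin (log2 -2.95, SE 0.12). The sestrins split, with *Sesn2* raised and both *Sesn1* (122 ± 3.28 to 36.2 ± 1.58 CPM, log2 -1.75, SE 0.06) and *Sesn3* (23.6 ± 0.650 to 2.73 ± 0.166 CPM, log2 -3.11, SE 0.12) lowered. *Ddit4l* was also called lower (log2 -2.48, SE 0.49). *Eif4ebp2* fell by 0.87 on the log2 scale (SE 0.05) while *Eif4ebp1* rose by 1.71. *Chac2* rose with *Chac1* but only 1.60-fold. *Nupr2* (log2 -0.01) and *Lrp8* (log2 -0.24) did not pass the test.

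In oligomycin set A, 2 relatives were called lower and 0 higher (7.96% and 4.79% of all genes), *Sesn1* (log2 -1.87) and *Sesn3* (-2.98). In set B 1 was called lower (5.02% of all genes), *Sesn3* (-2.22). With Sal003 1 was called lower (5.04% of all genes), again *Sesn3* (-1.97). On the log2 scale *Trib1* fell by 1.13 (set A) and by 0.68 (set B), and with Sal003 its change of -0.11 did not pass the test. *Sesn1* also responded to the cytokines themselves, from 425 ± 7.79 CPM in naive cells to 122 ± 3.28 CPM. Set A and set B differed for *Sesn1* in the sense opposite to *Sesn2*, with 33.5 ± 2.15 against 80.7 ± 4.30 CPM (log2 -1.27, SE 0.06), and for *Ddit4l* in the same sense as *Ddit4* (0.571 against 0.227 CPM, log2 1.33, SE 0.39, adjusted *P* = 0.0082, edgeR). The *Ddit4l* levels were low, and the *Ddit4* difference did not hold when any 1 of the 4 mice was left out (adjusted *P* 0.053 to 0.14, edgeR).

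**Figure D4:**
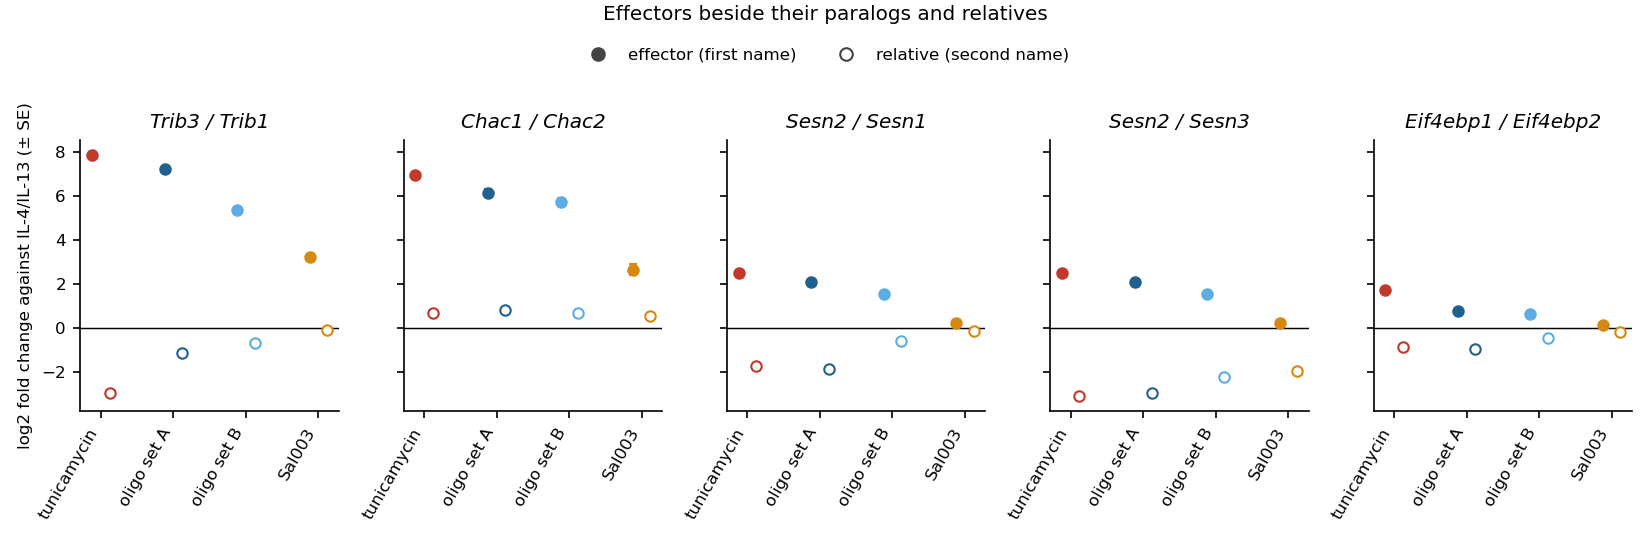
Log2 fold change against IL-4/IL-13 alone (points, edgeR estimates; bars, SE) of an effector (filled) and its paralog or relative (open) with each inhibitor. With tunicamycin *Trib3* was at 7.87 and *Trib1* at -2.95, and *Sesn2* at 2.51 and *Sesn3* at -3.11, while *Chac2*, at 0.68, rose with *Chac1*.

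Of 7 listed receptors and co-receptors for the secreted effectors 1 had enough reads to be tested, *Fgfr1*, a receptor that binds FGF21 only together with the co-receptor encoded by *Klb*. *Fgfr1* rose 6.31-fold with IL-4/IL-13, from 6.83 to 43.2 CPM, and was lower with each inhibitor, at 2.31 CPM with tunicamycin (log2 -4.22, SE 0.13), 9.85 with Sal003, 10.8 in oligomycin set A and 15.2 in set B. *Gfral*, the receptor for GDF15, and *Fgfr4* had 0 reads in every library, and *Klb* had 1 read with tunicamycin, 1 in set A and 0 elsewhere.

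The wider response was read from 26 other ISR genes, all tested. Tunicamycin gave 19 called higher and 1 lower (8.56% and 14% of all genes, median log2 of the list 2.78). Oligomycin set A gave 17 and 0 (4.79% and 7.96%, median 2.42) and set B 13 and 0 (2.94% and 5.02%, median 1.44). Sal003 gave 4 and 1 (2.68% and 5.04%, median 0.42). IL-4/IL-13 against naive gave 4 and 0 (5.39% and 6.08%, median 0.44), and set A against set B 2 and 0 (1.14% and 1.48%, median 0.52). Where 5 or fewer were called they are named here after their values were seen: the 1 lower with tunicamycin was *Atf3* (log2 -1.48), those higher with Sal003 were *Atf5*, *Asns*, *Phgdh* and *Slc3a2* and the 1 lower *Psat1*, those higher with IL-4/IL-13 were *Atf3*, *Psat1*, *Phgdh* and *Slc7a11*, and those higher in set A than in set B were *Ppp1r15a* and *Pycr1*. *Atf4*, the transcription factor of the response, rose 8.06-fold with tunicamycin, 5.19-fold in set A, 3.52-fold in set B and 1.52-fold with Sal003, so *Trib3* changed by a larger factor than *Atf4* in each. *Ddit3*, which encodes the death-promoting factor CHOP, rose by 4.21, 2.80, 1.93 and 0.97 on the log2 scale in the same order, although 82.4% of its exon length overlaps other annotated genes, so its counts are uncertain. *Pycr1*, of proline synthesis, was the most raised of the list with tunicamycin (39.7-fold), followed by *Slc7a5*, a leucine transporter (35.9-fold), and *Asns*, asparagine synthetase (22.8-fold). *Asns* hardly differed between set A and set B (161 against 146 CPM, log2 0.15, adjusted *P* = 0.15, edgeR), where *Trib3* differed 3.70-fold.

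Genes of other pathways that the effectors touch, or that also control some of them, were counted by the same rule, and the shares of all genes called are those given above for each comparison. Of 15 mTORC1 pathway genes, tunicamycin and oligomycin set A each gave 0 called higher and 1 lower, *Deptor*, an inhibitor of mTOR (log2 -2.31 and -1.86), and set B, Sal003 and IL-4/IL-13 gave none in either direction. Of 12 p53 targets, tunicamycin gave 1 higher, the death receptor gene *Fas* (log2 3.45), and 2 lower, *Phlda3* and *Trp53inp1*, shares close to those of all genes (8.56% and 14%), and the other 3 inhibitor groups gave none. Of 12 HIF targets, tunicamycin gave 3 higher and 1 lower, set A 3 and 0, set B 1 and 0, Sal003 none, and IL-4/IL-13 against naive 0 and 3. Under tunicamycin these were *Ndrg1* (16.4-fold), *Adm* (4.83-fold) and *Pfkfb3* (2.71-fold), with *Ankrd37* lower (log2 -2.15), a gene with 81.4% of its exon length overlapped by genes on the other strand, so that its counts are uncertain. Named after their values were seen, *Vegfa*, *Egln3* and *Ndrg1* were those lowered by IL-4/IL-13 and those raised in set A, and *Vegfa* was the one raised in set B.

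Among 10581 genes with a mean of at least 50 reads, the pattern over the 6 group means was compared with that of each effector by the root mean square difference of centred log2 CPM. This is a description over 6 group means. The effectors themselves were not among the candidates. *Trib3* was nearest to *Soat2* (0.52) and *Ffar2* (0.75), and *Chac1* to *Asns* (0.77) and *Sh2d6* (0.85). *Nupr1* was nearest to *Mmp28* (0.16) and *Ddit3* (0.31), and *Gdf15* to *Slc1a4* (0.36) and *Trim46* (0.37). *Sesn2* was nearest to *Gtpbp2* (0.16) and *Brd3os* (0.23), *Eif4ebp1* to *Hax1* (0.09) and *Yipf5* (0.11), *Vldlr* to *S1pr1* (0.30) and *Trp53cor1* (0.36), and *Ddit4* to *Hivep2* (0.13) and *Gem* (0.18). Among the effectors, *Trib3* and *Chac1* were nearest to each other (0.75), as were *Gdf15* and *Nupr1* (0.37), whereas the nearest effector to *Ddit4* was 0.74 away, with its own range of only 1.17 on the log2 scale.

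On GRCm39, *Trib3* lies on chromosome 2 from 152179337 to 152191958 (minus strand), and *Chac1* on the same chromosome from 119180757 to 119184866 (plus). *Sesn2* lies on chromosome 4 (132219335 to 132237815), *Nupr1* and *Fgf21* on chromosome 7 (126222414 to 126230033 and 45263301 to 45266963), and *Gdf15* and *Eif4ebp1* on chromosome 8 (71082038 to 71091537 and 27750350 to 27805206). *Ddit4* lies on chromosome 10 (59785491 to 59788492), *Stc2* on chromosome 11 (31307307 to 31320124) and *Vldlr* on chromosome 19 (27193862 to 27231631). *Gdf15* shared 12.9% of its 31-base stretches with the antisense RNA *Gm34154*, which is annotated over the gene on the other strand in a later annotation, and whether reads were counted by strand is not given in the sources used here, so reads of the pair cannot be told apart there. *Nupr1* shared 22.3% and *Eif4ebp1* 7.93% of such stretches with many other genes, and *Fgf21* 13.6% with *Fut1*. *Chac1*, *Sesn2* and *Ddit4* shared no 31-base stretch with another gene.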

How the data were processed

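The deposited values are raw read counts per gene, and per the labels and the study's methods the authors trimmed single reads with cutadapt 1.8, removed low-complexity and rRNA reads, mapped them to GRCm39 with STAR 2.7 and counted them with HTSeq 0.9.1. A deposited TPM table (RSEM 1.2.31) was not used. The 5 totals that name no gene (12.74% to 15.23% of a library) were left out. Counts were tested in R 4.3.3 with edgeR 4.0.16 (TMM factors, filterByExpr, quasi-likelihood test), with all 24 libraries in 1 model and Benjamini-Hochberg adjustment over 13679 genes, and the SE was the log2 fold change divided by the square root of F. Libraries held 16238727 to 26725278 counts on genes. CPM used the totals over the 13679 genes tested, multiplied by TMM factors of 0.936 to 1.05. The median biological coefficient of variation was 7.06%, and no replicates were as alike as duplicates. The labels give the same mouse numbers in every group, and same-mouse libraries deviated together (median correlation 0.24, above 0.1 in 56 of 60 pairs, against 7 of 180 for different mice), so a fit with the mouse as a block was run beside the main one.

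The effectors and gene lists were chosen with earlier results of these data known. A gene left out of the list of relatives is not reported here. All effectors, all tested relatives on that list, *Atf4* and *Ddit3* are named. Of other lists at most 3 genes with the largest change under tunicamycin are named, and the 2 most alike genes per effector. Beyond this rule, the genes behind counts of 5 or fewer are named, after their values were seen. Alternatives were DESeq2 1.42.0, RLE and upper-quartile factors, plain library sizes, no filter or at least 10 counts in every library, only the groups compared, other fold limits and leaving out each mouse. The ratios, and the alternatives for them and for the order, were added after the values were seen. The pipeline was tested on simulated counts. Promoter sequences came from RefSeq tables with Python 3.11.15, and the shared 31-base stretches from annotated transcripts.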

Additional observations from a re-analysis of the deposited data

Results flagged for a closer look

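Of 56 groups of 4 libraries, 6 held a library far from the other 3. The limit used gives about 1 in 20 by chance, but only for values that are not counts near 0. Where the other 3 libraries held 0 reads, as for *Fgf21* and for *Stc2* in naive cells and with Sal003, the flag was fixed in advance. The number of flags therefore cannot be compared with that rate. All 6 rest on few reads. *Chac1* was 0.488 CPM in naive mouse 1 and 0.322 to 0.348 CPM in the other naive mice. *Stc2* was 0.114 CPM in naive mouse 2 (0 in the others), 0.202 CPM in mouse 2 with IL-4/IL-13 (0.0527 to 0.0607 in the others) and 0.170 CPM in mouse 4 with Sal003 (0 in the others). *Fgf21* was 0.0514 CPM in mouse 1 with tunicamycin and 0.0474 CPM in mouse 1 of oligomycin set A, 1 read each, and 0 in the others.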

How the results depend on the processing

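Of the log2 changes of the effectors recomputed under the alternatives, 992 kept their direction and their side of an adjusted *P* of 0.05, 29 moved above it, 4 moved below it, and 7 changed sign. The fold limit is not part of this count: *Gdf15* in IL-4/IL-13 against naive and *Vldlr* in tunicamycin against Sal003 dropped under it without mouse 2, and *Sesn2* and *Gdf15* in set B against Sal003 passed it without mouse 5. The sign changed for *Chac1* in IL-4/IL-13 against naive without mouse 1 (0.11) or mouse 4 (0.04), with a range of -0.46 to 0.11 over the 4 mice left out, for *Eif4ebp1* there without mouse 2 (0.06, range -0.12 to 0.06), and for *Ddit4* in oligomycin set B against IL-4/IL-13 with RLE factors (-0.01), upper-quartile factors (-0.03), at least 10 counts in every library (-0.01) or without mouse 4 (-0.04). The cause was not tested. With at least 10 counts in every library, where fewer genes are tested, 1 effector was called in IL-4/IL-13 against naive and 1 in set B against Sal003. Without a filter 2 were called in set A against set B. With a 2-fold limit 2 were called in set A against set B, 5 in tunicamycin against set B and 4 in set B against Sal003. For these counts with a changed filter or a 2-fold limit, the shares of all genes are not given here. Whether the counts moved more than those of all genes was therefore not tested. With no minimum fold 6 were called in IL-4/IL-13 against naive (30.1% of all genes higher and 30.4% lower). Sal003 against IL-4/IL-13 also gave 6 (25.9% and 24.6%). A count of 7 was reached in set A against set B (19.9% and 21.3%) and in tunicamycin against set A (31.4% and 32.1%). It was also 7 in tunicamycin against set B (35.4% and 35.7%) and in set B against Sal003 (9.74% and 8.77%).

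Leaving out each mouse gave 1 to 2 effectors called in IL-4/IL-13 against naive and 2 to 4 in set B against Sal003. With the replicate block (the mouse), tunicamycin against IL-4/IL-13 kept a count of 7 and 29 neighbouring pairs differed, and set B against Sal003 gave 3 in place of 2. Low counts limit *Vldlr*, *Stc2* and *Fgf21*. Most moves across an adjusted *P* of 0.05 were for *Ddit4*.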
